A study of Mus musculus with 6 samples.

Results

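Transcripts of 9 neurotransmitter transporter genes were examined in retinas at postnatal day 7 (P7) from control mice and mice null for *Lhx4*. The genes were *Slc1a1*, *Slc1a2*, *Slc1a3*, *Slc1a7*, *Slc6a9*, *Slc32a1*, *Slc17a6*, *Slc17a7*, and *Slc17a8*, taken by symbol from the deposited expression table, and all 9 of them were found among its 21744 genes. They cover uptake of glutamate and glycine at the plasma membrane and the loading of glutamate, GABA, and glycine into synaptic vesicles. RNA-seq was performed on 6 libraries, 3 per genotype, to ask which transcripts depend on *Lhx4*, a LIM-homeodomain transcription factor gene of bipolar cells and cones. The values are FPKM, fragments per kilobase of transcript and per unit of mapped depth, so levels can be compared between genes.

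The *Lhx4* null mice of the study carried a tdTomato knockin allele over a loxP allele (*Lhx4* tdT/loxP) with *Six3-Cre*. The labels call the other mice control without their alleles. The study's controls were wild type or *Lhx4* loxP/+ in one experiment and carried the tdT allele in another, and which of these gave the RNA is not given in the sources used here. Both were on a mixed C57BL/6J; 129S6 background and of both sexes. *Six3-Cre* acts in the developing retina, while the tdT allele is carried by every cell of the mouse. Each library was made from the whole retinas of 1 mouse after removal of the pigment epithelium. In such bulk RNA, fewer cells of a type and less RNA per cell cannot be told apart.

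At its synapses the retina uses glutamate for the vertical path from photoreceptors through bipolar cells to ganglion cells, and GABA and glycine for most lateral inhibition by amacrine cells. Vesicular transporters load the transmitter, driven by a proton pump. Plasma membrane transporters of the SLC1 and SLC6 families remove it again with the sodium gradient, and Müller glia take up much of the glutamate. VGLUT1 serves photoreceptors and bipolar cells, VGLUT2 mainly ganglion cells, and VGLUT3 a small group of amacrine cells.

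Because LHX4 has a homeodomain, the 13 RefSeq promoter windows of the 9 genes (GRCm38.p6, 250 bases before to 50 after a start) were searched for TAATTA, a core that many homeodomains bind and that reads the same on both strands. It was found in 3 of the 13 windows, against 5.29% of 32851 windows of all genes. The windows that hold it are printed so that they can be set beside the levels of their genes, with TAATTA in capitals. For *Slc17a6* and *Slc17a8*, each with another window that lacks it, the 250 bases before a start inside the annotated gene are shown. For *Slc1a3* 30 bases just before the first base of the GENCODE gene and after the RefSeq start are shown.

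Slc17a6 (chr7:51624387-51624636, plus strand): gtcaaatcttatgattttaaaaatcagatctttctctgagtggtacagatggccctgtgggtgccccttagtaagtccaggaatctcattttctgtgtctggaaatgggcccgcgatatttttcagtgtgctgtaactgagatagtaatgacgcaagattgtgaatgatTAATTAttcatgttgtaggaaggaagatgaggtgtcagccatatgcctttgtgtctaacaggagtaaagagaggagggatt

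Slc17a8 (chr10:89599816-89600065, minus strand): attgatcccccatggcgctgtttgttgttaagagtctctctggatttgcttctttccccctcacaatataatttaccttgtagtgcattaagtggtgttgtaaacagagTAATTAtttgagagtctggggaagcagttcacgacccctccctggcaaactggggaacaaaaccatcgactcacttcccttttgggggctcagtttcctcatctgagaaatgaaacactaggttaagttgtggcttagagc

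Slc1a3 (chr15:8710767-8710796, minus strand): cctgaaatgaggTAATTAaacgtggccttg

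TAATTA lies 81 bases before that start in *Slc17a6*, 141 bases before it in *Slc17a8*, and 23 bases after it in *Slc1a3*. GGATTA, the core bound by CRX and OTX2, was in 0 of the 13 windows, searched on both strands, and in 7.06% of all windows. These matches are letters in a window, and the FPKM do not show which start was used.

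The libraries were unequal in depth. Read from the steps of low FPKM values, their depth was 76.9 to 100% of the deepest library in the controls and 46.7 to 65.9% in those labelled *Lhx4* null, so that all 3 controls were the deeper ones. Among replicates of a genotype, Pearson's r over genes was 0.982 to 0.992. Among 15200 genes averaging 0.1 FPKM or more, limma with Benjamini-Hochberg adjustment called 21 genes lower (0.138%) and 13 genes higher (0.0855%) in the libraries labelled *Lhx4* null. *Lhx4* itself (chr1:155698031-155751684) read 20.9, 23.8, and 19.1 FPKM in the controls and 31.2, 30.3, and 29.0 FPKM where the label was *Lhx4* null, a log2 difference of 0.51 (limma, adjusted p = 0.098). That direction goes against the label, and because gene-level FPKM covers all exons, it does not show whether the deleted exons were read. In P7 sections of null retinas the study reports less *Grik1* and *Grm6* RNA and LHX3 and FEZF2 protein, and more *Cacna1i* RNA. Here the log2 differences were -1.825 for *Grik1*, -1.49 for *Grm6*, -1.414 for *Lhx3*, and -1.598 for *Fezf2* (limma, adjusted p = 8.5e-04, 0.0091, 7.4e-04, and 9.8e-04). That of *Cacna1i* was 2.197 (limma, adjusted p = 0.0020). The groups are named by label, and null libraries below are those labelled *Lhx4* null.

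In the P7 retina none of the 9 transporter genes passed the test in either direction. Limma called 0 of the 9 lower and 0 higher, beside 0.138% and 0.0855% of all genes tested. With an unadjusted p under 0.05 from limma there were also 0 of the 9, against 8.15% of all genes tested. In 0 of the 9 did the null libraries all lie on one side of the controls, as was seen in 14.2% of all genes tested. The log2 difference, null minus control on the log2(FPKM + 0.1) scale, was below 0 for 4 of the genes and above 0 for 5. Its median was 0.03 and its median size 0.07, beside 0.01 and 0.10 over all genes tested. The statement that a gene did not pass is a statement about the test, and the 95% interval of each fold is given below to show which changes the 6 libraries leave possible.

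**Figure D1:**
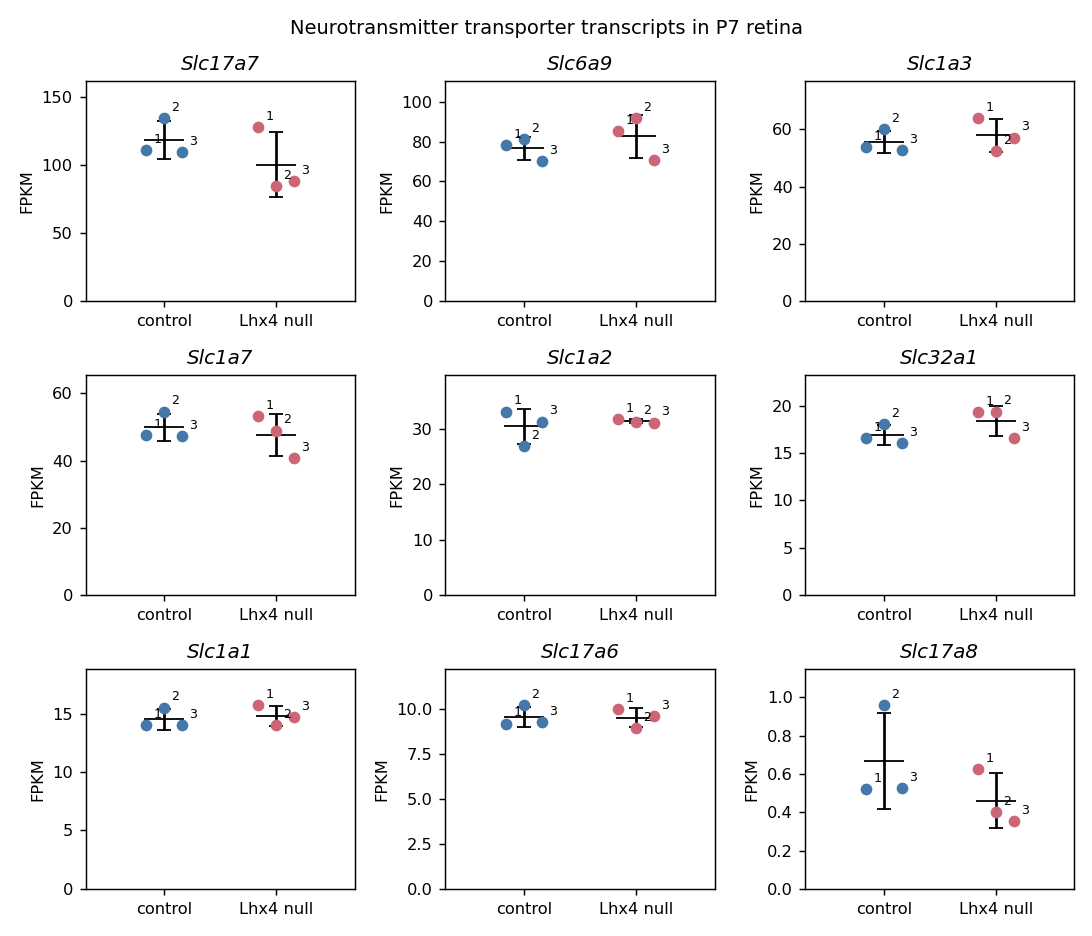
FPKM of the 9 transporter genes in each library, 1 panel per gene with its own linear axis from 0, ordered by the control mean. Points are libraries with their replicate number, horizontal bars the group mean, and whiskers 1 SD (n = 3). In every panel the control and null points overlap, and *Slc17a7* and *Slc17a8* have the widest scatter relative to their mean.

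The mean levels of the transporter genes in the controls ranged from 0.669 to 119 FPKM. *Slc17a7* was the highest in the controls with a mean of 119 ± 14.0 FPKM (SD, n = 3), above 97.9% of the symbols in the table. *Slc6a9* (76.5 ± 5.69 FPKM), *Slc1a3* (55.5 ± 3.94), *Slc1a7* (49.9 ± 4.05), and *Slc1a2* (30.4 ± 3.19) followed. *Slc32a1* (16.9 ± 1.06 FPKM), *Slc1a1* (14.5 ± 0.871), and *Slc17a6* (9.55 ± 0.559) were lower again, and *Slc17a8* was the lowest at 0.669 ± 0.252 FPKM. Most neighbours in this order were apart in all 6 libraries. The ranges overlapped for *Slc17a7* and *Slc6a9*, whose order was turned in null replicate 2, and for *Slc1a3* and *Slc1a7*, although *Slc1a3* was the higher one within each of the 6 libraries.

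Among the plasma membrane glutamate transporters, the group means of all 4 genes differed by less than the SD of the controls. *Slc1a3* encodes GLAST, the main glutamate transporter of Müller glia (ENSMUSG00000005360, chr15:8634124-8710764, minus strand). It read 53.8, 60.0, and 52.8 FPKM in the controls (replicates 1, 2, and 3 in this order, as below) and 64.0, 52.5, and 57.1 FPKM in the null libraries. Null replicate 1 was the highest and null replicate 2 the lowest of the 6, so the controls lay inside the null range. The log2 difference was 0.06 and the fold 1.04, with a 95% interval of 0.90 to 1.20 (limma, adjusted p = 0.90). Beside it, 9 of 10 Müller glia marker genes were higher in the null libraries, 0 of them called, and their summed level was 700 to 779 FPKM in the controls and 854 to 878 FPKM in the null libraries. *Slc1a3* did not separate the genotypes as that sum did.

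*Slc1a2* encodes GLT-1, which the retina uses in bipolar cells and cones and the brain in astrocytes (ENSMUSG00000005089, chr2:102658659-102790784, plus strand). It read 33.1, 26.9, and 31.3 FPKM in the controls and 31.7, 31.3, and 31.1 FPKM in the null libraries. The 3 null values were nearly equal and lay between control replicates 1 and 2. The fold was 1.03, with a 95% interval of 0.90 to 1.19 (limma, adjusted p = 0.92). The bipolar marker genes moved in these same libraries: 10 of 12 were lower, 5 of them called, and their sum was 817 to 928 FPKM in the controls and 629 to 715 FPKM in the null libraries. Their part in the *Slc1a2* values was not tested.

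*Slc1a1* encodes EAAC1, a glutamate and cysteine transporter of neurons (ENSMUSG00000024935, chr19:28835049-28913960, plus strand). Its 6 values fell between 14.0 and 15.7 FPKM. In the controls they were 14.0, 15.5, and 14.0 FPKM and in the null libraries 15.7, 14.0, and 14.7 FPKM. The fold of 1.02 had a 95% interval of 0.89 to 1.16 (limma, adjusted p = 0.96). Of its annotated exon bases, 31.9% are shared with 4430402I18Rik, and how the counting divided such fragments is not given in the sources used here, so its level is uncertain.

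*Slc1a7* encodes EAAT5, a transporter with a large chloride conductance at photoreceptor and rod bipolar terminals (ENSMUSG00000008932, chr4:107968332-108013532, plus strand). It read 47.7, 54.6, and 47.4 FPKM in the controls and 53.2, 48.9, and 40.8 FPKM in the null libraries. Null replicate 3 was the lowest of the 6 libraries, while null replicates 1 and 2 were above control replicates 1 and 3. The fold was 0.95, with a 95% interval of 0.80 to 1.13 (limma, adjusted p = 0.90).

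Added together, these 4 glutamate uptake genes came to 150 ± 5.99 FPKM in the controls and 152 ± 11.3 FPKM in the null libraries (SD, n = 3). Their shares of that sum were also alike in size. *Slc1a3* gave 36.9 ± 1.16% in the controls and 38.1 ± 2.07% in the null libraries, and *Slc1a7* gave 33.1 ± 1.41% and 31.3 ± 2.59%. *Slc1a2* gave 20.3 ± 2.77% and 20.8 ± 1.30%, and *Slc1a1* 9.65 ± 0.232% and 9.76 ± 0.383%.

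The genes of inhibitory transmission had slightly higher means in the null libraries, without passing the test. *Slc6a9* encodes GLYT1, the glycine transporter of glycinergic amacrine cells in the retina (ENSMUSG00000028542, chr4:117834506-117875198, plus strand). It read 78.1, 81.3, and 70.2 FPKM in the controls and 85.4, 91.9, and 70.8 FPKM in the null libraries. Null replicates 1 and 2 were above all controls, and null replicate 3 was level with the lowest control. The fold was 1.08, with a 95% interval of 0.91 to 1.28 (limma, adjusted p = 0.82).

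*Slc32a1* encodes VGAT, which loads both GABA and glycine into vesicles (ENSMUSG00000037771, chr2:158610767-158615748, plus strand). It read 16.6, 18.1, and 16.1 FPKM in the controls and 19.3, 19.4, and 16.6 FPKM in the null libraries. As with *Slc6a9*, null replicates 1 and 2 were above the controls and null replicate 3 was among them. The fold was 1.09, with a 95% interval of 0.94 to 1.25 (limma, adjusted p = 0.75). Null replicate 3 was the only null library within the control range of either gene, so leaving it out separated the groups in advance. The log2 differences were then 0.21 for *Slc6a9* and 0.19 for *Slc32a1* (limma, adjusted p = 0.43 and 0.44). Without null replicate 2 they were 0.03 and 0.08, and without control replicate 3 they were 0.05 and 0.08.

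Amacrine marker genes moved beside this pair: 9 of 10 were higher, 0 of them called, with a sum of 441 to 490 FPKM in the controls and 492 to 539 FPKM in the null libraries. The part of these cells in the values of *Slc6a9* and *Slc32a1* was not tested. Exons of both genes are partly shared with neighbours, 30.2% of exon bases for *Slc6a9* and 24.9% for *Slc32a1*, and the division of fragments there is uncertain.

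**Figure D2:**
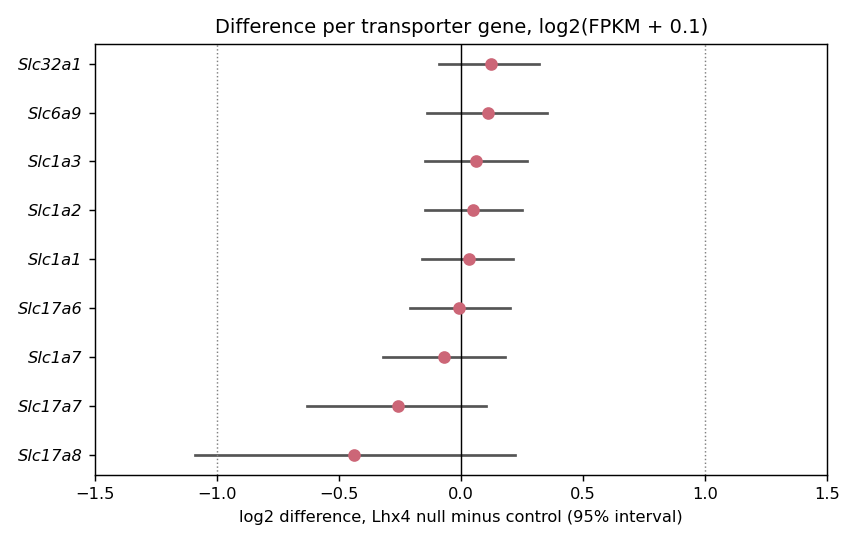
Log2 difference of each transporter gene, *Lhx4* null minus control on the log2(FPKM + 0.1) scale, with the 95% interval from limma over 3 libraries per group. The solid vertical line marks 0 and the dotted lines a log2 difference of -1 and 1. All 9 intervals include 0, and that of *Slc17a8*, -1.09 to 0.22, is the widest.

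The vesicular glutamate transporters held both the steadiest and the most variable genes of the set, with residual SDs of 0.083 for *Slc17a6* and 0.40 for *Slc17a8* on the log2 scale. *Slc17a6* encodes VGLUT2 (ENSMUSG00000030500, chr7:51622006-51671119, plus strand). It read 9.18, 10.2, and 9.28 FPKM in the controls and 10.0, 8.93, and 9.61 FPKM in the null libraries. The groups overlapped throughout, and the fold was 1.00 with a 95% interval of 0.87 to 1.14 (limma, adjusted p = 0.99). The 9 ganglion cell marker genes, cells in which VGLUT2 is the main vesicular glutamate transporter, summed to 322 to 365 FPKM in the controls and 326 to 355 FPKM in the null libraries.

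*Slc17a7* encodes VGLUT1 (ENSMUSG00000070570, chr7:45163949-45176142, plus strand). It read 111, 135, and 110 FPKM in the controls and 128, 84.7, and 88.5 FPKM in the null libraries. Null replicates 2 and 3 were the lowest of the 6 libraries, while null replicate 1 was above 2 of the 3 controls. The log2 difference was -0.26 (standard error 0.16) and the fold 0.83, with a 95% interval of 0.65 to 1.07 (limma, adjusted p = 0.70). The residual SD was 0.26 on the log2 scale, against a median of 0.13 over genes averaging 1 FPKM or more.

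The size of this difference moved with single libraries, from -0.45 to -0.15 when each was left out in turn. It was -0.15 without null replicate 2, -0.17 without control replicate 2, and -0.19 without null replicate 3 (limma, adjusted p = 1.00, 0.80, and 0.70). Null replicate 1 was the only null library within the control range, so without it the groups could not overlap. The log2 difference of *Slc17a7* was then -0.45, with a 95% interval of -0.69 to -0.21. Its unadjusted p from limma was then 0.0031, and its adjusted p, 0.17, still missed the threshold.

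The values of *Slc17a7* moved with rod genes from library to library. Over the 8 rod marker genes, 7 were lower in the null libraries, 0 of them called, and the sum was 3669 to 4260 FPKM in the controls against 2968 to 3989 FPKM in the null libraries. *Sag*, rod arrestin, read 945, 1008, and 892 FPKM in the controls and 927, 623, and 739 FPKM in the null libraries, and so was likewise low in null replicates 2 and 3. The ratio of *Slc17a7* to *Sag* stayed between 0.118 and 0.138 in all 6 libraries. Its ratio to *Pde6b*, a subunit of the rod phosphodiesterase, stayed between 0.348 and 0.390, and to *Pde6g*, the inhibitory subunit, between 0.178 and 0.205.

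Not all rod genes kept such a ratio. Against *Gnat1*, rod transducin, *Slc17a7* ranged from 1.60 to 4.41, and against *Nrl*, the rod determination factor, from 0.194 to 0.302. With a rod score (the mean of the 8 centred log2 values) as a covariate, the log2 difference of *Slc17a7* was 0.01, with a 95% interval of -0.14 to 0.16 and a residual SD of 0.040 (limma, adjusted p = 0.97). The rod score itself was -0.377 and -0.273 in null replicates 2 and 3, 0.223 in null replicate 1, and 0.00289, 0.376, and 0.0484 in the controls. This fit and these ratios were chosen after the values were seen. The score comes from the same 6 libraries and was below all controls in null replicates 2 and 3. The fit therefore also takes out any genotype difference that *Slc17a7* shares with rod genes, and a value near 0 does not show its source. The part of rods in the *Slc17a7* values was not tested.

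**Figure D3:**
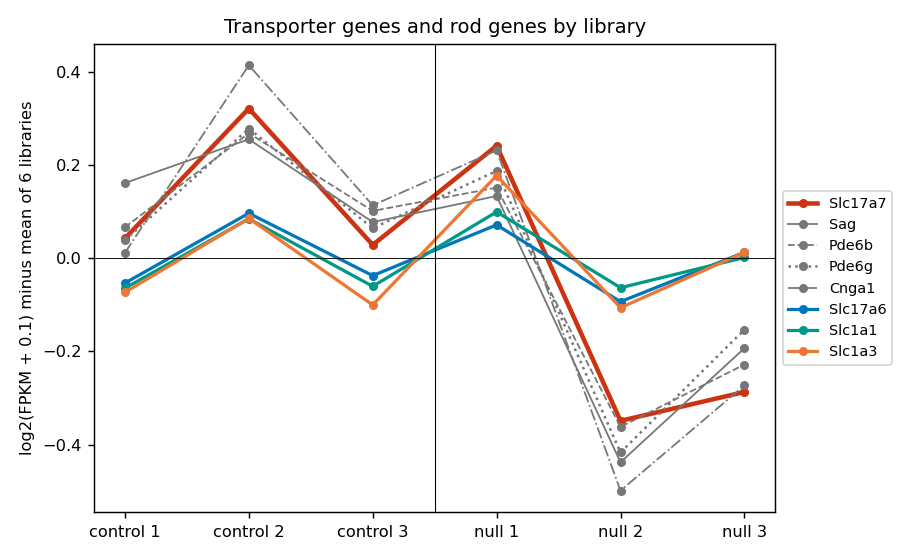
Log2(FPKM + 0.1) of *Slc17a7*, 4 rod genes, and 3 other transporter genes in each library, minus the mean of the gene over the 6 libraries. Lines join the values of a gene only to help the eye, since replicates have no order. *Slc17a7* lies with the rod genes, high in control replicate 2 and null replicate 1 and low in null replicates 2 and 3. The 3 other transporters drawn stay within about 0.2 of their mean. *Slc17a8*, not drawn, was at 0.728 in control replicate 2 and 0.181, -0.347, and -0.491 in null replicates 1, 2, and 3. *Slc1a7*, also not drawn, was at -0.25 in null replicate 3.

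The genes most like *Slc17a7* in pattern, also sought after its values were seen, were *Tdrd7*, *Mbnl1*, and *Gucy2e*. The measure was the root mean square difference of centred log2 values over the 6 libraries, among 12481 genes averaging 1 FPKM or more. It was 0.028 for *Tdrd7*, 0.031 for *Mbnl1*, and 0.036 for *Gucy2e*, beside a root mean square of 0.25 for *Slc17a7* around its own mean. *Gucy2e*, a photoreceptor guanylate cyclase, read 25.3, 30.6, and 24.8 FPKM in the controls and 27.1, 18.5, and 19.9 FPKM in the null libraries. All genes of a library share its depth and its rod content, so the likeness is a description.

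Bipolar cells also use VGLUT1. *Grm6*, the glutamate receptor of ON bipolar cells, fell by 1.49 on the log2 scale (limma, adjusted p = 0.0091), and the difference between it and *Slc17a7* was examined as a ratio. *Grm6* was 0.503, 0.550, and 0.465 of the *Slc17a7* level in the controls and 0.184, 0.211, and 0.256 of it in the null libraries. The groups did not overlap, with a log2 difference of the ratio of -1.23 (two-sided exact permutation test, p = 0.1, which is the floor for groups of 3). *Grm6* alone was already lower in every null library than in every control, and it was chosen with that known. The separation of the ratio was therefore largely set by *Grm6*, and the ratio is no test of VGLUT1 in bipolar cells.

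*Slc17a8* encodes VGLUT3 (ENSMUSG00000019935, chr10:89574020-89621253, minus strand). It read 0.520, 0.959, and 0.528 FPKM in the controls and 0.625, 0.403, and 0.355 FPKM in the null libraries. Null replicates 2 and 3 were below all controls, but null replicate 1 was above 2 of them. The log2 difference was -0.44 and the fold 0.74, with a 95% interval of 0.47 to 1.16 (limma, adjusted p = 0.71). Taking the longest annotated transcript as the length, about 78, 113, and 82 fragments stood behind the control values and about 45, 36, and 36 behind the null values, the fewest of the 9 genes, so counting error weighs most here. Without null replicate 1, the only null library within the control range, the groups could not overlap and the log2 difference was -0.64 (limma, adjusted p = 0.40). It was -0.18 without control replicate 2, -0.30 without null replicate 3, -0.19 with a pseudocount of 1 FPKM, and -0.05 with the rod score described above as a covariate (limma, adjusted p = 0.86, 0.73, 0.71, and 0.95).

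Summed over the 3 genes, vesicular glutamate transporters came to 129 ± 14.9 FPKM in the controls and 110 ± 24.4 FPKM in the null libraries (SD, n = 3). VGLUT1 made up 92.0, 92.4, and 91.8% of this sum in the controls and 92.3, 90.1, and 89.9% in the null libraries. The share of VGLUT2 was 7.44 ± 0.405% and 8.83 ± 1.38%, and that of VGLUT3 was 0.509 ± 0.128% and 0.414 ± 0.0474%. In null replicate 1 each share was within the control range, and in null replicates 2 and 3 that of VGLUT2 was above all controls.

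Ratios between transporter genes do not depend on the scaling of a library, and all 36 pairs were compared. The groups did not overlap for 4 of the 36 pairs, beside 14.2% of all genes tested when taken singly. The pairs share genes, and pairs of other genes were not counted. *Slc1a3* over *Slc17a7*, glial uptake against vesicular loading, was 0.483, 0.445, and 0.479 in the controls and 0.501, 0.620, and 0.645 in the null libraries. *Slc32a1* over *Slc17a7*, inhibitory against excitatory vesicular loading, was 0.149, 0.134, and 0.146 in the controls and 0.151, 0.229, and 0.188 in the null libraries. In both pairs null replicate 1 lay just outside the control range and null replicates 2 and 3 farther out.

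*Slc1a7* over *Slc32a1* was 2.88, 3.01, and 2.94 in the controls and 2.76, 2.51, and 2.46 in the null libraries. The fourth pair, *Slc1a1* over *Slc17a6*, differed by only 0.03 on the log2 scale. Each of the 4 pairs had p = 0.1 in a two-sided exact permutation test, the lowest value that groups of 3 can give, and 0.6 after Benjamini-Hochberg adjustment over the 36 pairs. No pair therefore passed a test, and none could have at this number of libraries.

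Around these transporters, 6 lists of genes that act with them were counted: other plasma membrane transporters, other vesicular transporters, enzymes of glutamate, GABA, and glycine metabolism, glutamine and amino acid exchangers, the sodium potassium pump, and the vesicular proton pump. Of their 67 genes, 65 were tested, and limma called 0 of them lower and 0 higher, beside 0.138% and 0.0855% of all genes tested. At an unadjusted p under 0.05 there was 1 lower and 1 higher gene, beside 8.15% of all genes tested. In 7 of the 65 the groups did not overlap, beside 14.2% of all genes tested. The difference was below 0 for 24 and above 0 for 41, and 46.7% of all genes tested were below 0.

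**Figure D4:**
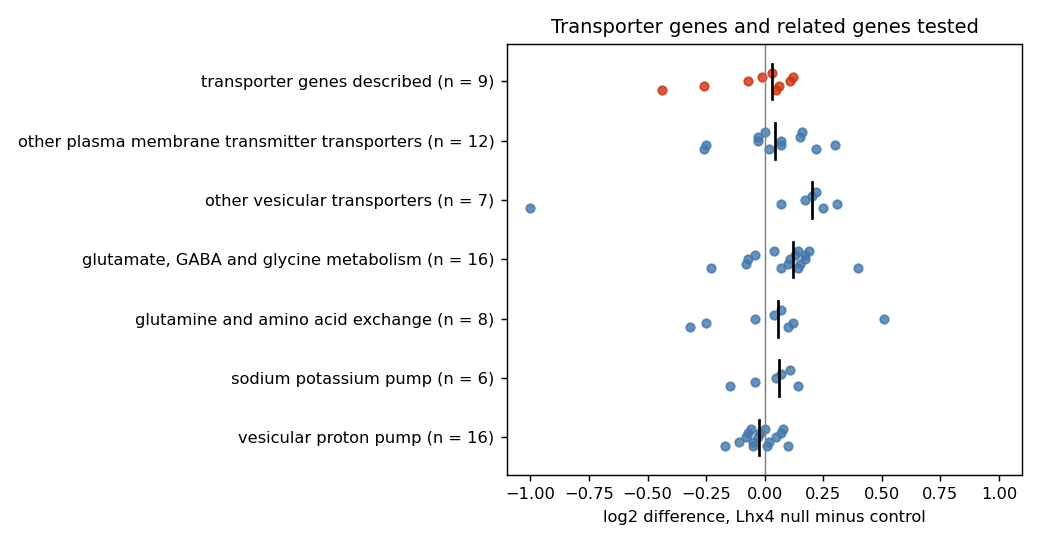
Log2 difference, *Lhx4* null minus control on the log2(FPKM + 0.1) scale, for the transporter genes described (red) and the 65 tested genes of the 6 lists (blue), 1 point per gene. Black bars are list medians, which lie between -0.03 and 0.20, and the number of genes tested stands beside each list.

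Among enzymes, 12 of 16 were above 0 and 4 below, with a median log2 difference of 0.12. *Gad2*, which makes GABA at terminals, read 5.01, 5.23, and 4.98 FPKM in the controls and 7.71, 6.56, and 5.97 FPKM in the null libraries. All null values were above all controls, and the log2 difference was 0.40 (limma, unadjusted p = 0.0078 and adjusted p = 0.41). *Gad2* is also 1 of the 10 amacrine markers, and *Glul*, of the same list of enzymes, 1 of the 10 Müller glia markers.

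Among other vesicular transporters, 6 of 7 were above 0, with a median of 0.20. *Slc18a3*, the acetylcholine transporter of starburst amacrine cells, differed by 0.31 (limma, adjusted p = 0.63), and *Slc18b1*, a polyamine transporter, by 0.25 (limma, adjusted p = 0.79). Null replicate 2 alone, at 17.7 FPKM, raised the mean of *Slc18b1*, whose other 5 values were between 9.13 and 10.6 FPKM. The gene below 0, named after its values were seen, was *Slc18a1*, a vesicular monoamine transporter with a mean under 1 FPKM. It read 0.355, 0.275, and 0.432 FPKM in the controls and 0.0573, 0.0465, and 0.395 FPKM in the null libraries, and its fold of 0.50, with a 95% interval of 0.24 to 1.05, was the largest difference among the 65 genes (limma, adjusted p = 0.64). Null replicate 3 lay among the controls. Of the other plasma membrane transporters, 7 of 12 were above 0 with a median of 0.04. The betaine and GABA transporter *Slc6a12* differed by -0.26 and the noradrenaline transporter *Slc6a2* by -0.25 (limma, adjusted p = 0.72 and 0.76), both at most 2.40 FPKM in every library.

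The exchangers that return glutamine and other amino acids had a median of 0.05 over 8 genes. *Slc38a5*, a glutamine transporter, differed by -0.32 and *Slc7a8*, a neutral amino acid exchanger, by -0.25 (limma, adjusted p = 0.74 and 0.77). *Slc7a8* read 13.4, 17.5, and 13.7 FPKM in the controls and 17.5, 11.1, and 9.67 FPKM in the null libraries, low in the same null replicates as *Slc17a7*.

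The pumps that power transport had medians close to 0. The sodium potassium pump had a median of 0.06 over 6 genes, with *Atp1b1*, a beta subunit, at -0.15 (limma, adjusted p = 0.75). The vesicular proton pump had a median of -0.03 over 16 genes. Its subunit gene *Atp6v1c1* read 28.9, 28.2, and 29.5 FPKM in the controls and 27.1, 23.9, and 25.8 FPKM in the null libraries, a log2 difference of -0.17 without overlap (limma, adjusted p = 0.60). *Atp6ap1*, an accessory subunit, differed by -0.11 (limma, adjusted p = 0.71).

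For reference, the remaining marker lists of the same libraries also moved in part. The cone markers summed to 360 to 508 FPKM in the controls and 574 to 693 FPKM in the null libraries, 6 of 8 higher and 1 of them called. Of the 2 lower cone genes, *Arr3* read 28.7, 29.7, and 30.2 FPKM in the controls and 16.9, 8.53, and 12.7 FPKM in the null libraries (limma, adjusted p = 0.077). The horizontal cell markers summed to 72.8 to 86.0 and 84.6 to 98.9 FPKM, with 4 of 5 higher. Pigment epithelium markers, 6 of 7 higher, summed to 20.1 to 40.4 FPKM in the controls and 44.5 to 76.4 FPKM in the null libraries. The microglia list was at 22.9 to 25.9 and 25.2 to 35.6 FPKM (5 of 7 higher), the astrocyte list at 12.6 to 16.1 and 10.7 to 15.3 FPKM (4 of 5 lower), and the endothelium list at 55.9 to 67.5 and 63.0 to 71.0 FPKM (4 of 5 lower). The lens list was at 10.9 to 28.5 and 14.0 to 18.7 FPKM, with 3 of its 6 genes at 0 in a library. Apart from the 1 cone gene, 0 genes of these lists were called, and the part of any of these cell types in the transporter values was not tested.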

How the data were processed

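The authors mapped paired-end reads to GRCm38 with TopHat2 and estimated expression with Cufflinks, per the labels and methods. The deposited values are FPKM per gene. Versions, annotation, and use of strand are not given in the sources used here. No count model was fitted to FPKM. In limma 3.58.1 (R 4.3.3), null minus control was estimated on log2(FPKM + 0.1) for 15200 genes averaging 0.1 FPKM or more over 6 libraries, using a trended prior variance and no covariate, and p-values were Benjamini-Hochberg adjusted over all of these genes (threshold 0.05, two-sided). Intervals are 95%. Exact permutation tests (Python 3.11.15, scipy 1.17.1) served single ratios. Plots used matplotlib 3.10.9. The fit and the depth estimate were tested on simulated data.

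Relative depth was the most frequent ratio between 2 libraries over low genes (2154 under 0.1 FPKM in every library, 573 to 861 of them above 0 in both), taking 1 fragment as the step of low values; as few as 11 genes stood at that ratio, so it is an estimate. Positions are from GENCODE vM21 (GRCm38), which may not be the annotation used by the authors, and promoter sequences from RefSeq. Every transporter gene occurs on 1 row; for symbols on several rows, the row with the highest mean was used.

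The transporter genes and all lists were chosen with earlier results of these data known. Genes named are the 9 transporters, *Lhx4*, and per related list any called gene and the 2 with the largest difference at a mean of at least 1 FPKM; 2 of the genes this rule names are not reported here. Marker genes shown singly, the genes like *Slc17a7*, *Slc7a8* values, *Slc18a1*, and the rod score fit were chosen after values were seen. The same holds for the genes set beside the study's P7 sections. The P6 libraries were not analysed here.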

Additional observations from a re-analysis of the deposited data

How the results depend on the processing

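Over 15 alternative settings (pseudocounts of 1 and 0.01 FPKM, no filter or a mean of at least 1 FPKM, median of ratios or quantile scaling, no variance trend, a replicate block, the rod score, and each library left out), limma called 0 transporter and 0 related genes. Of 134 log2 differences of the transporter genes, 124 kept their direction and 10 did not, all 10 lying within 0.07 of 0. A mean of at least 1 FPKM left no value for *Slc17a8*. The lowest adjusted p of a transporter gene in any setting was 0.17. With the rod score as a covariate, *Slc1a2* was at -0.0043, *Slc1a7* at 0.05, *Slc17a6* at 0.07, and *Slc17a7* at 0.01, and 1 gene, *Slc1a3*, had an unadjusted p under 0.05 (difference 0.18, limma adjusted p = 0.47). With each library left out, the differences ran from -0.02 to 0.08 for *Slc1a1*, from -0.04 to 0.11 for *Slc1a2*, from -0.02 to 0.12 for *Slc1a3*, from -0.16 to 0.03 for *Slc1a7*, from 0.03 to 0.21 for *Slc6a9*, from 0.08 to 0.19 for *Slc32a1*, from -0.04 to 0.04 for *Slc17a6*, from -0.45 to -0.15 for *Slc17a7*, and from -0.64 to -0.18 for *Slc17a8*. The count with an unadjusted p under 0.05 ran from 0 to 1 (*Slc17a7* without null replicate 1, *Slc6a9* without null replicate 3). The count without overlap ran from 0 to 2 (*Slc32a1* without control replicate 2, *Slc17a7* and *Slc17a8* without null replicate 1, *Slc6a9* and *Slc32a1* without null replicate 3). Groups separate more readily with a library removed, and the share of all genes without overlap was not counted in these settings. The cause was not tested.

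Libraries with the same replicate number did not deviate together (r of -0.184, -0.0475, and 0.192 over 12485 genes), so the numbers were not taken as pairs. With the replicate block, *Slc17a7* was at -0.26 (limma, adjusted p = 0.71), 0 transporter genes were called, and 15 genes in all were, against 34 without it. The number of libraries and, for *Slc17a8*, the depth limit what could be seen. Limma p-values weigh the genotype difference against the spread between 3 mice of a genotype, moderated over all genes tested. Depth was split by label, and its part in the differences was not tested.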
